A study of Mus musculus with 18 samples.

Results

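The Hox genes encode homeodomain transcription factors that give cells along the body axis their positional identity. They lie in 4 clusters, and the order of the genes on the chromosome follows the order of their expression domains, from the anterior genes with low numbers to the posterior genes with high numbers. Polycomb complexes keep a cluster silent, Trithorax complexes keep it active, and connective tissue cells of the adult retain the Hox pattern of the place they come from. In lung, Hoxa5 is required in the mesenchyme for normal airway development, and Hoxb genes of the middle of the cluster are expressed in the embryonic lung mesenchyme.

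The 38 Hox genes examined, of 46078 genes in the RNA-seq table, were chosen by name as members of the HoxA (10 genes), HoxB (10), HoxC (9) and HoxD (9) clusters. Added to them were the 78 of 111664 ATAC-seq peaks whose middle lay between the ends of the first and the last of these genes in a cluster, 26 in HoxA, 35 in HoxB, 12 in HoxC and 5 in HoxD. RNA-seq counts the reads of transcripts per gene, and ATAC-seq counts the reads from DNA that a transposase could reach, a measure of open chromatin. The cells came from mouse lung tumors of small cell lung cancer (SCLC), a neuroendocrine tumor, with 3 libraries per genotype and assay. In all 3 genotypes, called TKO, TKO;Carm1KO and TKO;NfibR388K, the mice carried conditional alleles of Rb1, Trp53 (p53) and Rbl1 as the labels have it, or Rbl2 by the Results of the study. TKO;Carm1KO mice also carried a conditional allele of Carm1, which encodes an arginine methyltransferase (CARM1 knockout), and in TKO;NfibR388K mice the arginine of the transcription factor NFIB that CARM1 methylates was replaced by lysine (NFIB mutant). Cre was delivered to the lung by adenovirus at 8 weeks of age, and tumors were collected 28 weeks later from separate animals. By the Methods, cells were sorted for a tdTomato reporter that Cre switches on, so the sort marks recombined cells of any type. Tumor biopsies and cancer cell lines are both named as the source of the cells, so that whether they had been cultured is not settled here. The question put to the Hox clusters was whether either mutant differed from TKO, and whether the mutants differed from each other.

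Library depth was 15848866 to 20915057 counted reads in RNA-seq and 26917178 to 47653979 in ATAC-seq. A level of 3 counts, taken as the detection limit, was at most 0.203 CPM (counts per 1000000 counted reads, scaled by edgeR's TMM method) in RNA-seq. Carm1 itself did not separate the libraries labelled CARM1 knockout from TKO, with 44.5 to 103 CPM in TKO and 50.8 to 79.1 CPM in CARM1 knockout libraries (log2 fold change -0.34, adjusted p = 0.410 by edgeR). The count covers every exon of the gene, so a deletion of some exons need not show in it. The tumor cell label held for TKO, where the summed level of 12 neuroendocrine markers was 1844 to 4390 CPM. It was 34.0 to 51.3 CPM in NFIB mutant libraries and 59.3, 188 and 1875 CPM in CARM1 knockout replicates 1 to 3, with Neurod1 at 0 in all 6 mutant libraries. The summed level of 10 fibroblast markers was 103 to 308 CPM in TKO and 16089 to 29624 CPM in the mutants. Each contrast of a mutant with TKO below is therefore also a contrast of libraries that differ in these markers, and whether Hox differences come with the cell type or with the genotype cannot be told apart. In such bulk libraries, fewer cells of a type and less RNA per cell cannot be told apart either. CARM1 knockout replicate 3 for its neuroendocrine level, NFIB mutant replicate 2 for its HoxC and HoxD genes and TKO replicate 3 for its HoxB level stood apart from the other libraries of their genotype.

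Sequences at large differences in HoxA and HoxD are shown first, all in GRCm38 (mm10). They are the middle 300 bases of the peak with the largest change of the same direction in both mutants in each cluster, and no HoxC peak was called in both. Capitals mark a run of codons for alanine in the HoxD window, and the other sequences hold none.
HoxA peak 10, chr6:52197035-52197334, plus strand, in an intron of Hoxa3: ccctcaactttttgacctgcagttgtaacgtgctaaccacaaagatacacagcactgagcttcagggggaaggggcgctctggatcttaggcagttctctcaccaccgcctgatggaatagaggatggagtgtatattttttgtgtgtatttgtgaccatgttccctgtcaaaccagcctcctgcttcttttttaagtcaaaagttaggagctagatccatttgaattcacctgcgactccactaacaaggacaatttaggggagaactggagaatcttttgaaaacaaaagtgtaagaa
HoxD peak 1, chr2:74668409-74668708, plus strand, in the coding part of exon 1 of Hoxd13: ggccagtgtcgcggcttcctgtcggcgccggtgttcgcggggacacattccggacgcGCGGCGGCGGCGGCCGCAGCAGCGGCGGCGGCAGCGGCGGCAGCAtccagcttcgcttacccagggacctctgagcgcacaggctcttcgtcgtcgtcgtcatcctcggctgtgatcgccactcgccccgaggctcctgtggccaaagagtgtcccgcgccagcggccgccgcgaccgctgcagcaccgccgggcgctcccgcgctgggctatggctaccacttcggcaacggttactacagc
The 250 bases before the start of Hoxa5, from the RefSeq promoter table, are shown because Hoxa5 was the HoxA gene with the highest level per kilobase in each of the 6 mutant libraries.
Hoxa5 promoter, chr6:52204588-52204837, minus strand: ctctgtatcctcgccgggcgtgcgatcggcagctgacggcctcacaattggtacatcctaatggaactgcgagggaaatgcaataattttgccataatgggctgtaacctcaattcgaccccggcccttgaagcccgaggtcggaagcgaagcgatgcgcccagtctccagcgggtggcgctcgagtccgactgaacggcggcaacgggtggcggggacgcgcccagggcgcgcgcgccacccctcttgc

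Both strands of these windows were searched for 3 motifs. The Hox and PBX motif TGATNNAT (present in 12.4% of windows of 300 bases at all peaks and in 7.68% of the 32851 promoters in the table), the NFI motif TTGGCA (21.3% and 12.3%) and the AP-1 motif TGANTCA (23.7% and 6.75%) had no match in the 3 windows. The promoter table held 24 of the 38 genes. The capitals of the HoxD window, bases 58 to 102, are 15 codons of the form GCN in the frame of Hoxd13, the alanine run whose expansion is a known cause of limb malformation.

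Of the 38 genes, 14 had enough counts to be tested and 24 did not, 7 of which had 0 counts in every library (Hoxb1, Hoxc12, Hoxc13, Hoxd1, Hoxd3, Hoxd10 and Hoxd12). Over 3 counts were found for 8, 16 and 11 genes in TKO replicates 1 to 3, for 17, 14 and 14 in CARM1 knockout and for 14, 28 and 16 in NFIB mutant libraries. Only Hoxb2 to Hoxb9 exceeded 3 counts in all 9 libraries. The clusters therefore did not behave alike, HoxB being expressed in every library, HoxA nearly only in the mutants, and HoxC and HoxD mostly in single libraries.

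**Figure D1:**
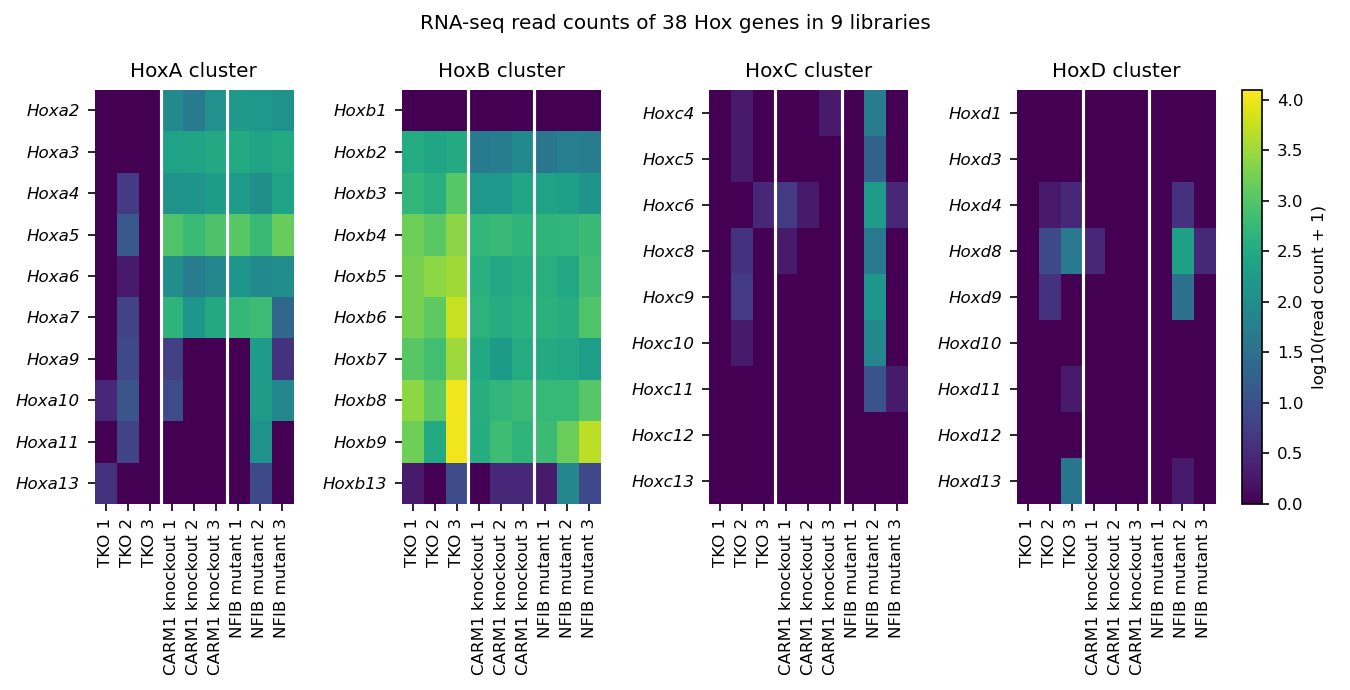
Heat map of log10(count + 1) for the 38 Hox genes (rows, by cluster in order along the chromosome) in the 9 RNA-seq libraries (columns, by genotype). Hoxa2 to Hoxa7 exceed 3 counts in all 6 mutant libraries, Hoxb2 to Hoxb9 in all 9, and genes of HoxC mainly in NFIB mutant replicate 2.

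A change is called, here and below, when edgeR's quasi-likelihood test over all features tested gives an adjusted p under 0.1 and the log2 fold change is 0.8 or more in size for a gene, or 0.5 or more for a peak. In each mutant, 6 Hox genes were called higher than in TKO, all in HoxA, and 7 lower, all in HoxB. Of all 15514 genes tested, 20.5% passed as higher and 18.3% as lower in CARM1 knockout, and 22.3% and 23.5% in the NFIB mutant, so changes were common throughout. All 6 mutant libraries lay above all 3 TKO libraries for 6 of the 14 tested genes (22.3% of all tested genes) and below them for 5 (23.3%). The 6 HoxA genes passed the filter on low counts only through the mutant libraries and had to differ, so their count is a description and no p is given for them. Leaving out CARM1 knockout replicate 3 left 6 calls higher and 7 lower in CARM1 knockout.

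In HoxA (chr6:52162417-52260880), the anterior and middle genes Hoxa2 to Hoxa7 were at or near 0 in TKO and expressed in every mutant library. Hoxa2, which patterns the hindbrain and the second pharyngeal arch, was at 0 CPM in the 3 TKO libraries, at 5.83, 2.86 and 6.52 CPM in CARM1 knockout and at 9.54, 9.31 and 8.13 CPM in NFIB mutant libraries. Hoxa3, required for thymus and parathyroid, was also at 0 in TKO, with 15.4, 14.5 and 16.9 CPM in CARM1 knockout and 19.2, 15.4 and 20.3 CPM in the NFIB mutant. Against a floor of 3 counts per TKO library, Hoxa2 in CARM1 knockout was at least 37.2-fold higher, and in the NFIB mutant at least 66.1-fold higher. The same bounds for Hoxa3 were 114-fold and 134-fold. The groups did not overlap for either gene.

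The next genes had a few counts in TKO, all of them in replicate 2. Hoxa4 was at 0, 0.175 and 0 CPM in TKO, at 8.54, 7.64 and 10.2 CPM in CARM1 knockout and at 11.4, 6.78 and 15.1 CPM in the NFIB mutant. Hoxa5 (ENSMUSG00000038253), at 0, 0.525 and 0 CPM in TKO, reached 63.7, 35.8 and 49.9 CPM in CARM1 knockout and 66.7, 35.7 and 88.6 CPM in the NFIB mutant. Every mutant library exceeded every TKO library for both genes. From the summed counts of each group, the ratio of CARM1 knockout to TKO was 146 for Hoxa4 (95% exact interval 56.7 to 539) and 271 for Hoxa5 (155 to 525), and that of the NFIB mutant to TKO was 183 (70.9 to 673) and 350 (200 to 679). The intervals hold for counting error alone, because reads copied by PCR are not separate molecules. The TKO side of both ratios rests on the 4 and 12 counts of TKO replicate 2. Without that library, with the rest of TKO at 0, the ratios became bounds of at least 63.5 and 79.9-fold for Hoxa4 and at least 359 and 460-fold for Hoxa5.

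Per kilobase of exons, Hoxa5 was the highest HoxA gene in all 6 mutant libraries, with 19.0 to 47.2 CPM per kilobase. Its neighbors on either side were lower, with 4.25 to 9.45 CPM per kilobase for Hoxa4 and 3.54 to 9.81 for Hoxa6. Hoxa6, a gene of the thoracic skeleton, had 1 count in TKO replicate 2 and none in the others, and was at 7.19, 3.09 and 4.16 CPM in CARM1 knockout and 8.57, 5.67 and 6.61 CPM in NFIB mutant libraries. With that single count the ratio has a wide interval, 311 (55.2 to 12319) in CARM1 knockout and 461 (82.2 to 18267) in the NFIB mutant, and without TKO replicate 2 the bounds were at least 34.7 and 50.2-fold.

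Hoxa7 was the most variable of these genes within a genotype. It was at 0, 0.262 and 0 CPM in TKO, at 31.4, 8.11 and 16.9 CPM in CARM1 knockout and at 32.3, 39.6 and 1.40 CPM in NFIB mutant libraries. NFIB mutant replicate 3 was thus far below the other mutant libraries, though above TKO. The ratio of summed counts was 201 (91.8 to 548) in CARM1 knockout and 273 (125 to 745) in the NFIB mutant, with bounds of at least 136 and 176-fold without TKO replicate 2. The peak at the start site inside the Hoxa7 gene, named here after its values were seen, showed the same library low, at 10.6, 13.2 and 0.844 CPM in the NFIB mutant against 2.33, 3.15 and 1.48 CPM in TKO and 9.48, 5.51 and 9.29 CPM in CARM1 knockout.

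The posterior HoxA genes, known for the limb and the urogenital tract, were not expressed in most mutant libraries. Hoxa9 had 176 counts in NFIB mutant replicate 2 and at most 7 in any other library. Hoxa10 was at 11.5 and 4.96 CPM in NFIB mutant replicates 2 and 3 and at most 0.542 CPM elsewhere. Hoxa11 was at 7.52 CPM in NFIB mutant replicate 2 and at most 0.262 CPM elsewhere, and Hoxa13 had 7 counts there and at most 3 elsewhere. The last HoxA gene above 1 CPM was thus Hoxa7 in the 3 CARM1 knockout libraries and in NFIB mutant replicate 1, Hoxa11 in replicate 2 and Hoxa10 in replicate 3. None of these 4 genes was tested.

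HoxB (chr11:96194316-96368256) was the cluster of the TKO libraries, holding 99.1 to 100% of their summed Hox CPM. Its share was 55.0 to 79.1% in the mutants, where HoxA held 20.9 to 44.3%. The summed level of the 10 HoxB genes was 832 ± 688 CPM in TKO (SD, n = 3), 168 ± 7.03 in CARM1 knockout and 323 ± 198 in the NFIB mutant. For HoxA the sums were 0.765 ± 1.12, 103 ± 30.5 and 145 ± 2.44 CPM. Highest in TKO was replicate 3, at 1617 CPM of HoxB, and lowest was replicate 2, at 337 CPM, while NFIB mutant replicate 3, at 550 CPM, lay within the TKO range.

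**Figure D2:**
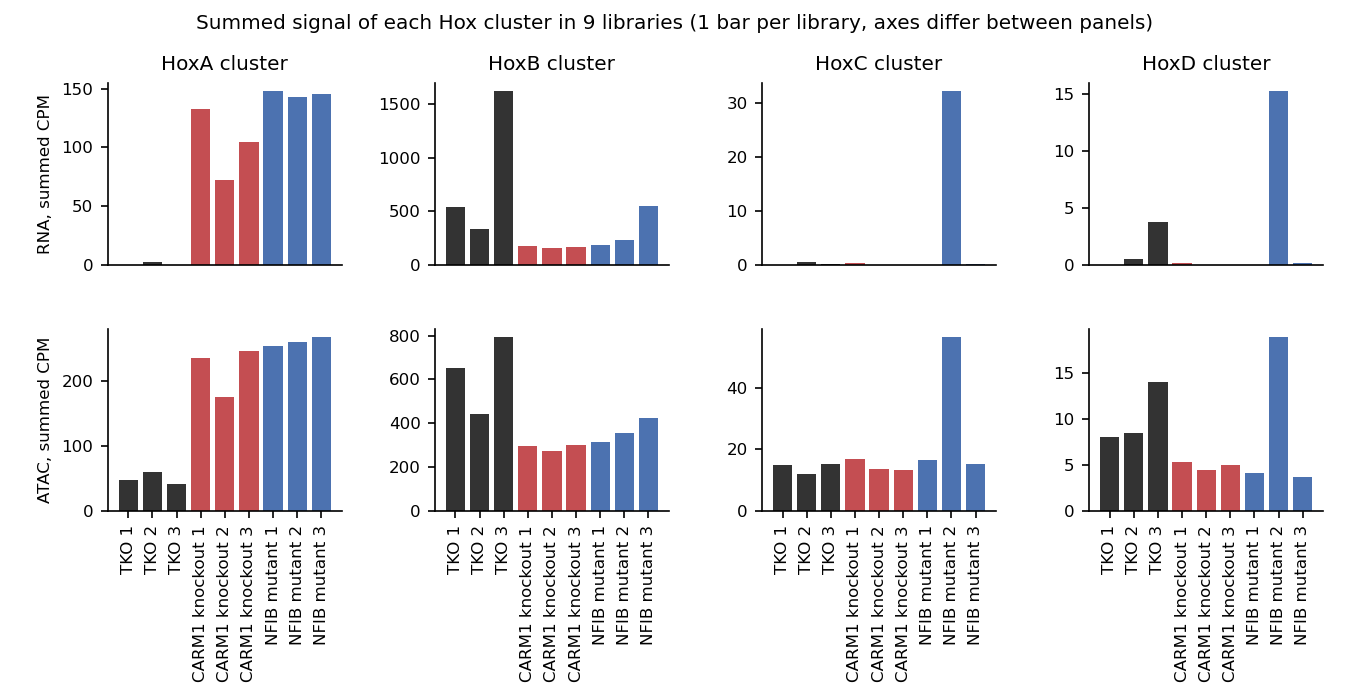
Summed CPM of each Hox cluster in RNA-seq and ATAC-seq, 1 bar per library, with a linear axis from 0 that differs between panels. HoxA is higher in all 6 mutant libraries in both assays, HoxB RNA overlaps between TKO and NFIB mutant, and HoxC and HoxD are highest in NFIB mutant replicate 2.

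Hoxb2 to Hoxb8 were lower in both mutants, by log2 fold changes of -1.27 to -2.85 in CARM1 knockout and -1.25 to -2.24 in the NFIB mutant. Over the 8 tested HoxB genes the median was -2.29 and -1.92, against -0.03 and -0.05 over all genes. Among the anterior genes, Hoxb2, a partner of Hoxa2 in the hindbrain, was at 16, 11.4 and 14.3 CPM in TKO, 3.39, 3.15 and 5.11 CPM in CARM1 knockout and 2.37, 3.58 and 3.43 CPM in the NFIB mutant. Its log2 fold change was -1.84 (SE 0.38, adjusted p = 0.00945 by edgeR) and -2.15 (SE 0.39, adjusted p = 0.00437), with no overlap between mutants and TKO. Hoxb3 was at 24.5, 16.7 and 47.9 CPM in TKO, 10.3, 8.92 and 14.7 CPM in CARM1 knockout and 14.4, 12.8 and 8.32 CPM in the NFIB mutant. Its changes, -1.39 (SE 0.43, adjusted p = 0.0392) and -1.33 (SE 0.43, adjusted p = 0.0395), were among the least firm. Without CARM1 knockout replicate 1 or 2 or TKO replicate 3 the adjusted p in CARM1 knockout was 0.116, 0.117 and 0.114, and without NFIB mutant replicate 3 or TKO replicate 3 that in the NFIB mutant was 0.118 and 0.124.

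Hoxb4, which expands blood stem cells when overexpressed, was at 74.0, 48.8 and 109 CPM in TKO, 35.1, 33.8 and 26.8 CPM in CARM1 knockout and 29.2, 31.1 and 37.0 CPM in the NFIB mutant. It fell by 1.27 (SE 0.29, adjusted p = 0.0134 by edgeR) and by 1.25 (SE 0.29, adjusted p = 0.0117) on the log2 scale, and no mutant library reached TKO. Hoxb5 (ENSMUSG00000038700), a gene of the embryonic lung and gut mesenchyme, was at 86.8, 112 and 145 CPM in TKO, 26.7, 16.5 and 19.8 CPM in CARM1 knockout and 22.8, 17.9 and 44.7 CPM in the NFIB mutant. Its change of -2.45 (SE 0.39, adjusted p = 0.00373) and -2.01 (SE 0.39, adjusted p = 0.00571) was called with the lowest adjusted p of HoxB in CARM1 knockout, and again the groups did not overlap.

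Hoxb6 was at 88.2, 50.4 and 248 CPM in TKO, 30.2, 19.8 and 22.9 CPM in CARM1 knockout and 26.3, 22.2 and 59.7 CPM in the NFIB mutant, where replicate 3 exceeded TKO replicate 2. Its log2 fold change was -2.41 (SE 0.64, adjusted p = 0.0231 by edgeR) and -1.84 (SE 0.62, adjusted p = 0.0453). Hoxb7 was at 52.4, 31.6 and 141 CPM in TKO, 20.9, 9.97 and 18.9 CPM in CARM1 knockout and 19.2, 16.9 and 12.8 CPM in the NFIB mutant, a difference of -2.18 (SE 0.56, adjusted p = 0.0214) and -2.20 (SE 0.56, adjusted p = 0.0171) without overlap. For Hoxb8 the TKO libraries had 124, 52.4 and 456 CPM, the CARM1 knockout 24.3, 28.6 and 34.6 CPM and the NFIB mutant 33.6, 33.7 and 66.8 CPM, a log2 fold change of -2.85 (SE 0.75, adjusted p = 0.0223) and -2.24 (SE 0.73, adjusted p = 0.0396). TKO replicate 3 was the highest library for all 3 genes, and NFIB mutant replicate 3 exceeded TKO replicate 2 for Hoxb8 too.

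Without TKO replicate 3, the changes in CARM1 knockout were -1.47 for Hoxb6, -1.30 for Hoxb7 and -1.56 for Hoxb8, still called, and Hoxb7 in the NFIB mutant was -1.34. In the NFIB mutant, Hoxb6 was then at -0.92 (adjusted p = 0.156 by edgeR) and Hoxb8 at -0.95 (adjusted p = 0.12), so that with Hoxb3 the HoxB genes called lower went from 7 to 4. Leaving out NFIB mutant replicate 1 or 2 also ended the calls of Hoxb6 (adjusted p = 0.121 and 0.130) and Hoxb8 (adjusted p = 0.107 and 0.115) in that mutant.

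Hoxb9, the next gene on the posterior side and one linked to lung metastasis, did not pass the test. It was at 75.9, 13.8 and 456 CPM in TKO, 23.6, 39.7 and 26.6 CPM in CARM1 knockout and 38.1, 89.6 and 317 CPM in the NFIB mutant, so the 3 groups overlapped. The log2 fold change was -2.60 (SE 1.22, adjusted p = 0.128 by edgeR) and -0.29 (SE 1.14, adjusted p = 0.849). The peak at its start site, at 21.6, 10.6 and 51.5 CPM in TKO, 12.5, 18.5 and 13.3 CPM in CARM1 knockout and 17.9, 35.1 and 43.1 CPM in the NFIB mutant, overlapped between the groups as well. Hoxb13, the most posterior gene and a prostate lineage factor, had 79 counts in NFIB mutant replicate 2 and at most 8 in any other library, and Hoxb1 had none.

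**Figure D3:**
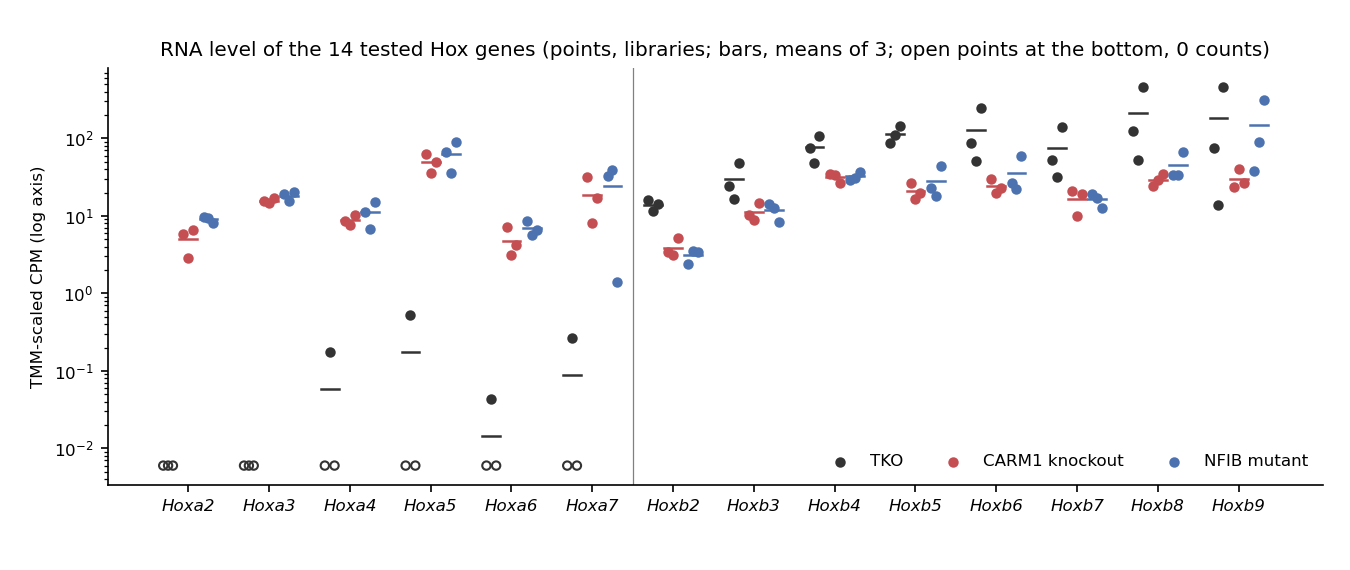
CPM of the 14 tested Hox genes in each library, on a log axis, colored by genotype, with open points at the bottom for libraries with 0 counts. Hoxa2 to Hoxa7 are separated between TKO and the mutants, Hoxb2, Hoxb3, Hoxb4, Hoxb5 and Hoxb7 the other way, and Hoxb9 overlaps.

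Part of the exons of some members overlaps other genes, and whether the authors' counting used the strand is not stated in the sources used here, so that reads of a gene and its antisense partner may not be told apart. The share of exon bases that other genes overlap was 52.9% for Hoxb3, 35% for Hoxa11, 27.3% for Hoxb2, 27.1% for Hoxa3 and 20.4% for Hoxa7. The overlapping gene of Hoxb3, the antisense RNA Hoxb3os, was itself lower in both mutants (log2 fold change -2.06 and -1.51). Its part in the Hoxb3 counts was not tested.

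HoxC (chr15:102921103-103036852) and HoxD (chr2:74668310-74765142) were silent or nearly so in most libraries, and none of their 18 genes was tested. NFIB mutant replicate 2 held 520 counts on HoxC genes, where no other library had more than 10. Its levels were 10.8 CPM for Hoxc6 (ENSMUSG00000001661), 8.63 for Hoxc9, 4.81 for Hoxc10, 3.33 for Hoxc4 and 2.77 CPM for Hoxc8, with Hoxc5 and Hoxc11 at 1.11 and 0.616 CPM. In the other 8 libraries Hoxc6 was at most 0.271 CPM, Hoxc9 at most 0.175 and Hoxc10 at most 0.0437 CPM. The genes with counts thus ran from Hoxc4 at the anterior end of the cluster to Hoxc11, and the most posterior genes, Hoxc12 and Hoxc13, stayed at 0.

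In HoxD, the same library held 247 counts, nearly all on Hoxd8 at 13 CPM and Hoxd9 at 1.97 CPM. Hoxd8 (ENSMUSG00000027102) was otherwise found in TKO replicate 3 at 1.95 CPM and TKO replicate 2 at 0.306 CPM, and at no more than 0.136 CPM in the rest. Hoxd13, the gene of the digits, had 38 counts in TKO replicate 3, 1 in NFIB mutant replicate 2 and 0 in the other 7 libraries. With Hoxa11, Hoxa13, Hoxc4, Hoxc5, Hoxc8, Hoxc9, Hoxc10, Hoxc11, Hoxd8 and Hoxd9, 10 Hox genes had over 3 counts in NFIB mutant replicate 2 and at most 3 in every other mutant library. By the same rule each of the other mutant libraries had 0 such Hox genes. Of all 21397 genes with over 3 counts in any library, 271 (1.27%) met the rule for NFIB mutant replicate 2. The pattern rests on that 1 library.

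Open chromatin was more often called higher in HoxA and lower in HoxB, the directions of the transcripts, and the size of the HoxB part depended on how the libraries were scaled. In CARM1 knockout, 17 of the 78 peaks, which were all tested, were called higher and 28 lower, where 38.7% and 32.4% of all 111116 tested peaks were called. In the NFIB mutant, 30 were higher and 21 lower, against 39.3% and 34% of all peaks. All 6 mutant libraries were above all TKO libraries for 19 Hox peaks (33.1% of all peaks) and below them for 18 (28.6%), or for 25 and 4 when scaled by library totals alone. For the latter scaling the share of all peaks was not computed. The background is thus high, and the totals over the 4 clusters mix opposite directions. Without CARM1 knockout replicate 3, 16 peaks were higher and 26 lower in CARM1 knockout. Without TKO replicate 3, the peaks called lower in CARM1 knockout were 20, and without NFIB mutant replicate 2 the peaks called higher in that mutant were 20. Scaled by library totals alone, 65.9% and 64.3% of all calls in CARM1 knockout and NFIB mutant were higher, against 54.4% and 53.6% with TMM, the Hox peaks called lower were 13 and 9, and no called HoxA or HoxB peak changed sign. Of all 111116 peaks, 52571 were then called higher and 27254 lower in CARM1 knockout, and 52670 and 29271 in the NFIB mutant.

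In HoxA, 16 of 26 peaks were higher in CARM1 knockout and 21 of 26 in the NFIB mutant, and 0 were lower in either. The median log2 fold change of the 26 peaks was 1.87 and 2.17, against 0.22 and 0.22 over all peaks. Summed over the cluster, the HoxA peaks held 47.5, 59.7 and 41.5 CPM in TKO, 237, 176 and 247 CPM in CARM1 knockout and 255, 261 and 268 CPM in the NFIB mutant. The sum was higher in every mutant library than in every TKO library. HoxA peak 10 (chr6:52196044-52198325), in an intron shared by Hoxa3 and the antisense RNA Hoxaas3, changed most. It was at 1.15, 1.42 and 0.803 CPM in TKO, 17.4, 11.8 and 19.1 CPM in CARM1 knockout and 17.9, 8.76 and 24.3 CPM in the NFIB mutant, a log2 fold change of 3.83 (SE 0.43, adjusted p = 8.43e-05 by edgeR) and 3.91 (SE 0.44, adjusted p = 6.69e-05).

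The Hoxa5 promoter lay inside HoxA peak 13 (chr6:52203003-52206725), named here for that sequence after its values were seen. That peak was at 4.05, 4.02 and 2.49 CPM in TKO, 22.6, 21.3 and 26.5 CPM in CARM1 knockout and 24.7, 22.7 and 29.2 CPM in the NFIB mutant, with a log2 fold change of 2.73 and 2.86. Of the 8 peaks within 1000 bp of a start site of Hoxa2 to Hoxa7, 7 were higher in CARM1 knockout and 8 in the NFIB mutant.

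The HoxA peaks divided near the same place as the transcripts in CARM1 knockout but less sharply in the NFIB mutant. Of 19 peaks from Hoxa2 to Hoxa7, 16 were higher in CARM1 knockout and 17 in the NFIB mutant, with a median of 2.07 and 2.43. Of the 7 peaks from Hoxa9 to Hoxa13, 0 were called in CARM1 knockout and 4 in the NFIB mutant, where 2 remained without replicate 2. By library totals 1 and 6 of the 7 were called higher, and by start-site peaks of evenly expressed genes 0 and 6. Of all 111116 peaks, 52571 and 52670 were called higher by library totals, and 49218 and 50878 by start-site peaks. With TMM, the sum of these 7 was 8.20 to 10.7 CPM in TKO and 8.29 to 11.2 CPM in CARM1 knockout. It was 16.6, 42.9 and 14.9 CPM in NFIB mutant replicates 1 to 3, all above TKO, although replicate 1 had 0 counts for Hoxa9, Hoxa10, Hoxa11 and Hoxa13. Under both other scalings the sum was above TKO in all 6 mutant libraries. In CARM1 knockout it was 9.13 to 13.1 CPM by library totals, against 6.90 to 7.26 CPM in TKO. By start-site peaks it was 9.38 to 11.5 CPM against 6.92 to 8.49 CPM. NFIB mutant replicate 2 was the highest library in 7 of the 7, and was the highest of the 9 in 7.75% of all peaks.

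**Figure D4:**
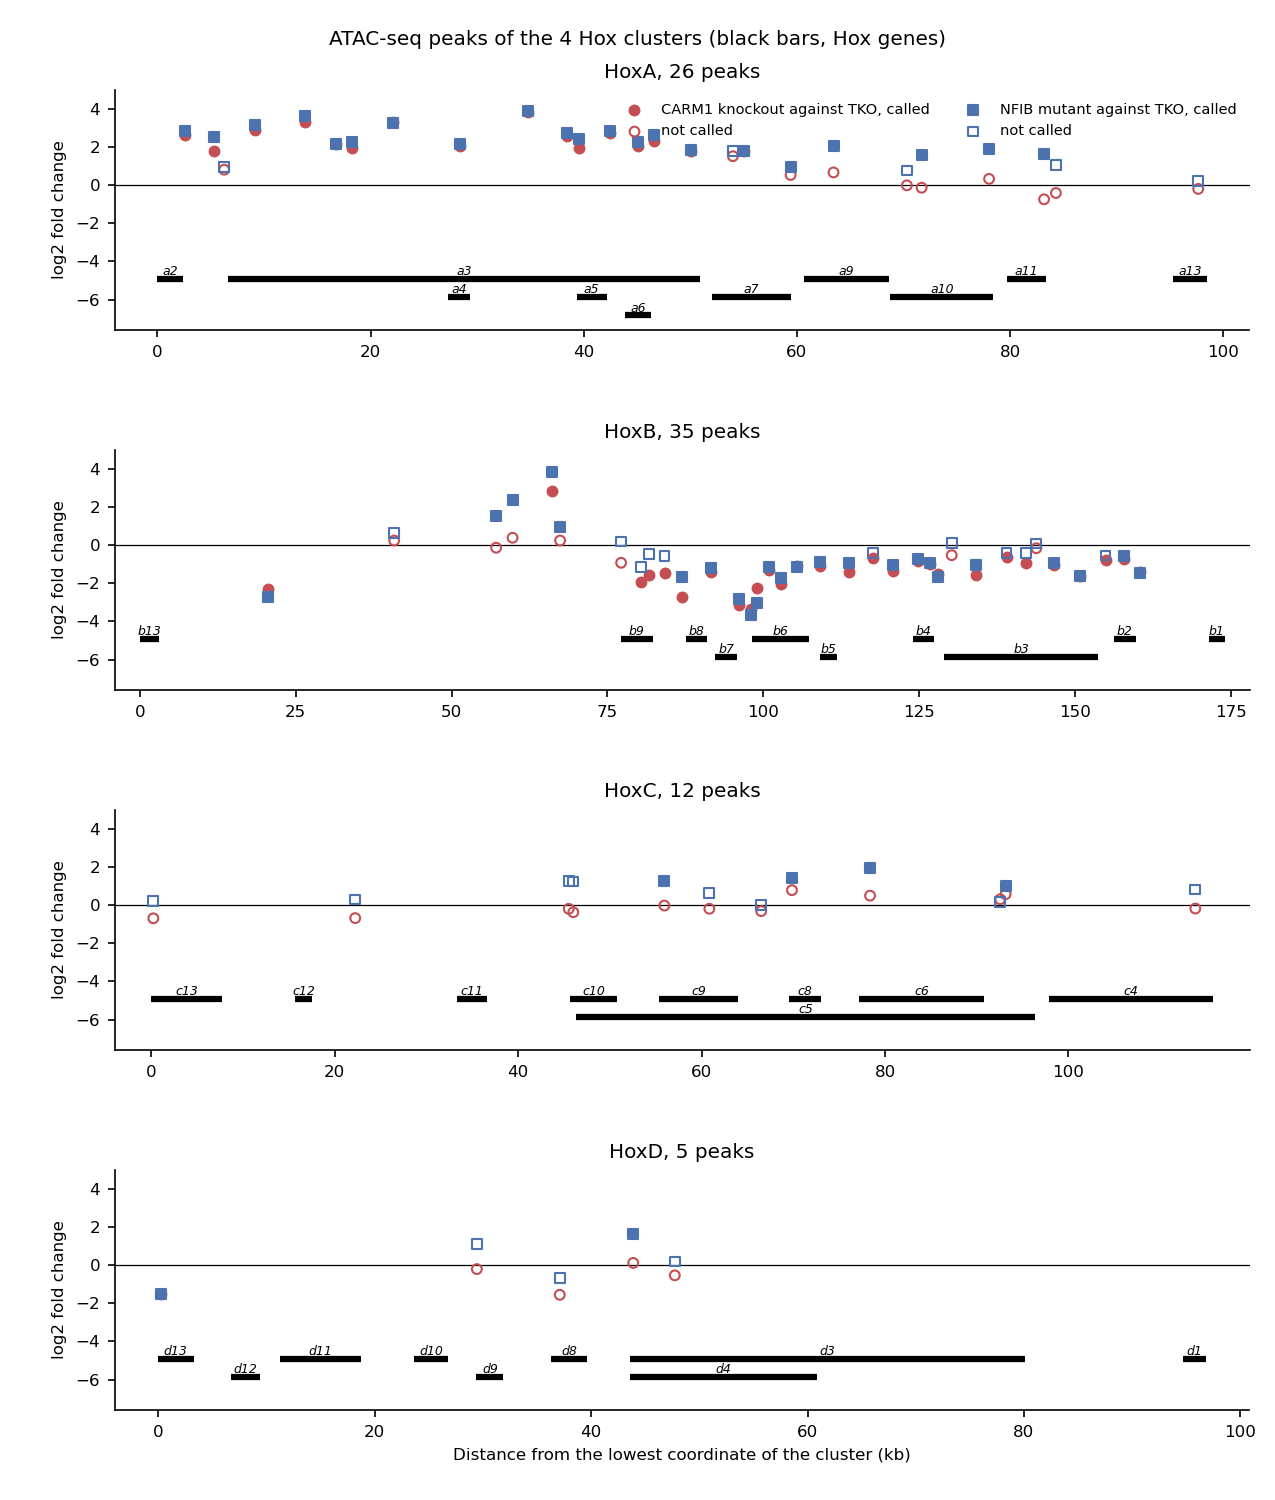
Log2 fold change of each Hox peak against TKO, by distance in kb from the lower end of its cluster, for CARM1 knockout and NFIB mutant, with filled points for called peaks and bars for the genes. HoxA peaks are above 0 from Hoxa2 to Hoxa7 in both mutants, and HoxB peaks from Hoxb9 to Hoxb2 are mostly below 0.

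In HoxB, 27 of 35 peaks were lower in CARM1 knockout and 20 of 35 in the NFIB mutant, while 1 and 4 were higher, all with TMM scaling. By library totals 13 and 9 were lower, and by start-site peaks of evenly expressed genes, the kind of scaling the study used, 18 and 10. Of all 111116 peaks, 27254 and 29271 were called lower by library totals, and 29238 and 30129 by start-site peaks. With TMM the median of the 35 HoxB peaks was -1.11 and -0.93, against 0.22 and 0.22 over all peaks. Their summed level was 652, 442 and 793 CPM in TKO, 296, 274 and 299 CPM in CARM1 knockout and 314, 355 and 424 CPM in the NFIB mutant, with no mutant library reaching TKO. This separation held with TMM and with neither of these other scalings. By library totals the sums were 489, 300.2 and 697 CPM in TKO and 319 to 511 CPM in the mutants, all above TKO replicate 2. By start-site peaks they were 539, 351 and 669 CPM in TKO and 281 to 485 CPM in the mutants. Only 2 mutant libraries then lay below all TKO libraries. The HoxB sums were above those of HoxA in all libraries, but over 80.5 kb of peaks in HoxB against 44.6 kb in HoxA. HoxB peak 14, at a start site of Hoxb6, fell most, from 7.36, 1.33 and 16.4 CPM in TKO to 0.491, 0.518 and 1.43 CPM in CARM1 knockout and 0.717, 0.986 and 0.275 CPM in the NFIB mutant. Its log2 fold change was -3.36 (SE 0.87, adjusted p = 0.00621 by edgeR) and -3.67 (SE 0.88, adjusted p = 0.00408), with CARM1 knockout replicate 3 just above TKO replicate 2. Without TKO replicate 3 it was -2.41 and -2.71, still called.

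Of the 11 peaks at start sites of Hoxb2 to Hoxb9, 10 were lower in each mutant and 0 higher, or 5 and 4 lower by library totals. Between Hoxb9 and Hoxb1, 26 of 29 peaks were lower in CARM1 knockout and 19 in the NFIB mutant (12 and 8 by library totals), and 0 were higher. The 6 peaks of the long gap between Hoxb13 and Hoxb9 differed from these, with 1 higher and 1 lower in CARM1 knockout and 4 higher and 1 lower in the NFIB mutant. Of these 4, 2 remained without NFIB mutant replicate 2, TKO replicate 1 or TKO replicate 2. HoxB peak 5 (chr11:96259808-96261132), in an intron of Gm53 within the gap, was the HoxB peak called higher in both mutants. It was at 0.287, 0.525 and 1.27 CPM in TKO, 4.37, 5.03 and 5.56 CPM in CARM1 knockout and 7.08, 9.07 and 13.5 CPM in the NFIB mutant, a log2 fold change of 2.86 (SE 0.54, adjusted p = 0.00125 by edgeR) and 3.85 (SE 0.56, adjusted p = 0.00027). Within 100000 bp on either side of HoxB, 12 of 19 peaks were higher and 1 lower in CARM1 knockout, and 13 were higher and 2 lower in the NFIB mutant. As a background, 38.7% of all tested peaks passed as higher and 32.4% as lower in CARM1 knockout, against 39.3% and 34% in the NFIB mutant. The HoxB flanks were therefore more often higher than lower, beyond that background, but this was not particular to HoxB. For HoxA, 6 of 11 flank peaks were higher in each mutant, with 2 lower in CARM1 knockout and 1 in the NFIB mutant. For HoxC, 2 of 4 were higher and 0 lower in each mutant, and none of the 2 at HoxD passed.

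HoxC and HoxD held few and weak peaks. Peaks covered 6.50% of HoxC and 3.06% of HoxD, against 45.3% of HoxA and 46.3% of HoxB. The HoxC sum was 12 to 15.3 CPM in TKO, 13.3 to 16.7 CPM in CARM1 knockout and 16.3, 56.3 and 15.2 CPM in the NFIB mutant, where replicate 2 was the highest library in 10 of 12 peaks. The 4 HoxC peaks called higher in the NFIB mutant all lost the call without replicate 2, and 1 of the 12 was called without TKO replicate 2. By library totals 2 HoxC peaks were higher in CARM1 knockout and 7 in the NFIB mutant, where 52571 and 52670 of all 111116 peaks were. HoxC peak 9, within Hoxc6 and named after its values were seen, was at 22.7 CPM in that library and at 2.53 to 3.98 CPM in the other 8. The library with HoxC transcripts was thus also the library with the more open HoxC.

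In HoxD, the sum was 8.03 to 14 CPM in TKO, 4.40 to 5.27 CPM in CARM1 knockout and 4.06, 19.0 and 3.71 CPM in the NFIB mutant. HoxD peak 1 (chr2:74668180-74668937), over the start and first exon of Hoxd13, was lower in both mutants. It was at 2.90, 3.06 and 3.97 CPM in TKO, 1.24, 1.15 and 1.09 CPM in CARM1 knockout and 1.2, 1.80 and 0.451 CPM in the NFIB mutant, a log2 fold change of -1.51 (SE 0.52, adjusted p = 0.0244 by edgeR) and -1.53 (SE 0.52, adjusted p = 0.0225). The groups did not overlap. By library totals the call was lost in both mutants (-0.95, adjusted p = 0.131, and -1.0, adjusted p = 0.115). At Hoxd8 the peak was highest in TKO replicate 3 at 6.93 CPM and NFIB mutant replicate 2 at 5.94 CPM, the libraries that also had the most Hoxd8 counts, and at 0.471 to 2.60 CPM in the rest. The single HoxD peak called higher in the NFIB mutant lost the call without NFIB mutant replicate 2, CARM1 knockout replicate 1 or any of the TKO libraries. Without NFIB mutant replicate 2, 2 HoxD peaks were lower in each mutant, as were 2 in CARM1 knockout without NFIB mutant replicate 3.

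Between the mutants, 0 Hox genes and 0 Hox peaks were called, as were 0% of all genes and 0% of all peaks by edgeR. At an unadjusted p under 0.05 there were 0 of the 14 genes and 9 of the 78 peaks, the lowest adjusted p was 0.608 for genes and 0.691 for peaks, and DESeq2 called 0 of either. The share of all genes and peaks under that unadjusted limit was not computed, so these counts are a description only. Over all features DESeq2 did call differences between the mutants, in 540 genes (1.97% of 27468 fitted) and 1060 peaks (0.949% of 111664). In Hoxa5, with 49.8 ± 14 CPM (SD, n = 3) in CARM1 knockout and 63.7 ± 26.6 in the NFIB mutant, the difference was within the spread. A missed threshold with 3 libraries per genotype does not show that the mutants are alike. The 2 comparisons share 17 peaks called higher, 16 of them in HoxA, and 21 called lower, 20 of them in HoxB, but they also share the TKO libraries. The share of all peaks called alike in both mutants was not computed, so whether these counts exceed it is not known.

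Of the partners and regulators of Hox genes, lists were described by their counts, to be read against the shares of all tested genes called, 20.5% higher and 18.3% lower in CARM1 knockout and 22.3% and 23.5% in the NFIB mutant. Among 9 TALE cofactors, which bind DNA with Hox proteins, 1 was higher and 1 lower in CARM1 knockout and 1 and 2 in the NFIB mutant. With so few genes, these counts cannot be told apart from those shares. Meis1 was at 6.73 to 11.2 CPM in TKO, 23.3 to 43.7 CPM in CARM1 knockout and 31.3 to 55.1 CPM in the NFIB mutant (log2 fold change 1.78 and 2.22), and Pbx4 fell by 2.54 and by 3.20 on the log2 scale. Meis2 fell by 2.05 in the NFIB mutant, while its value in CARM1 knockout was -1.11 (adjusted p = 0.280 by edgeR). Among 29 Polycomb and Trithorax regulators, 0 were higher in either mutant, and 13 were lower in CARM1 knockout (44.8%) and 11 in the NFIB mutant (37.9%). Ezh2, the methyltransferase of Polycomb complex PRC2, fell by 1.57 and by 1.74 on the log2 scale, its partner Suz12 by 1.0 and by 1.19, and Bmi1 of the complex PRC1 by 1.28 and by 1.88. Asxl1, a subunit of a histone deubiquitinase, fell by 0.91 in CARM1 knockout and had -0.76 in the NFIB mutant, under the limit of 0.8.

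Of 19 genes of Cdx, retinoic acid and Gdf11 signaling, inputs that set Hox expression in the embryo, 13 were tested and 5 were higher in CARM1 knockout (38.5% of those tested) and 7 in the NFIB mutant (53.8%), with 0 lower. The retinoic acid receptor Rarg was at 3.46 to 6.69 CPM in TKO, 145 to 173 CPM in CARM1 knockout and 169 to 218 CPM in the NFIB mutant (log2 fold change 4.94 and 5.25), and its partner Rxra rose by 1.35 and 1.80. The retinoid binding protein Crabp1 was higher too, at 0.753 to 3.41 CPM in TKO and 21.2 to 727 CPM in the mutants. Cdx4 was at 0 in all 9 libraries. Of 11 other genes of the clusters, 5 were tested, 3 were higher in each mutant and 1 lower. The 3 were long non-coding RNAs of HoxA, with Hoxaas2 and Hoxaas3 at 0 in all TKO libraries and at 2.51 to 7.05 and 0.933 to 1.80 CPM in the mutants, and Hotairm1 at up to 0.048 CPM in TKO and 0.449 to 1.72 CPM in the mutants. Like the HoxA genes, they passed the filter on low counts only through the mutant libraries, so their count is a description. Exons of Hoxaas2 and Hoxaas3 also overlap those of Hoxa3. The 1 called lower was Hoxb3os. Hotair and Hottip, which lie in HoxC and at the posterior end of HoxA, were at 0 in all libraries.

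Of 47 other regional transcription factors, 33 were tested, with 10 higher and 9 lower in CARM1 knockout (30.3% and 27.3%) and 9 and 7 in the NFIB mutant (27.3% and 21.2%). Prrx1, a factor of limb and craniofacial mesenchyme, was at 0.354 to 7.25 CPM in TKO and 244 to 1012 CPM in the mutants (log2 fold change 6.93 and 7.43), and Prrx2 rose by 4.44 and 3.51. Foxf1, of the lung mesenchyme, rose by 3.08 in CARM1 knockout and had 2.30 in the NFIB mutant (adjusted p = 0.119 by edgeR). These examples, picked by level, all rose, but the list had no single direction. Nkx6-1, named here after its values were seen, was called lower in both mutants. It was at 2.69 to 50.9 CPM in TKO, at 0 in CARM1 knockout and at up to 1.36 CPM in the NFIB mutant.

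The marker lists did not move alike, and only the fibroblast sum separated all mutant libraries from all TKO libraries. Of 10 fibroblast markers, 10 were higher in CARM1 knockout and 9 in the NFIB mutant, Col1a1 and Col3a1 among them, and none of the 10 was at 0 in every library of a genotype. Of 12 neuroendocrine markers, 3 were lower in CARM1 knockout and 11 in the NFIB mutant. In CARM1 knockout replicate 3, whose neuroendocrine sum was within the TKO range, Hoxa5 was at 49.9 CPM and Hoxb5 at 19.8 CPM, both within the range of the other mutant libraries. That library also had the highest fibroblast sum of all libraries, at 29624 CPM, and the highest leukocyte sum, at 2670 CPM. Of 10 lung epithelium markers, 9 were tested, 1 was lower in each mutant and 0 and 4 were higher. The summed level was 283 to 635 CPM in TKO and 3.49 to 2806 CPM in the mutants. Of 8 leukocyte markers, 7 were tested and 6 and 2 were higher. Their sums were 4.17 to 54.8 CPM in TKO and 27.1 to 2670 CPM in the mutants, with the T cell gene Cd3e at 0 in all libraries. Sums of 6 endothelium and 5 mesothelium markers were 5.86 to 21.3 and 0.576 to 49.0 CPM in TKO and 1.82 to 73.9 and 8.54 to 810 CPM in the mutants. Only 5 and 3 of these were tested, with 1 of each list higher in each mutant and 1 endothelium marker lower in the NFIB mutant. Of all tested genes, 20.5% were higher and 18.3% lower in CARM1 knockout, and 22.3% and 23.5% in the NFIB mutant. The part of these cell types in the Hox differences was not tested.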

How the data were processed

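RNA-seq and ATAC-seq were each represented by 9 libraries, 3 per genotype, and the column names C, KO and N were read, after the figure legends of the study, as TKO, CARM1 knockout and NFIB mutant. For RNA-seq the authors trimmed the reads, mapped them to mm10 and deposited unnormalized htseq-count counts per gene. The authors mapped ATAC-seq reads to mm10 with Bowtie2, removed duplicates, called peaks (MACS2 by the Methods, Genrich by the processing notes) and deposited unnormalized counts on 1 set of peaks, made with featureCounts 1.6.3 per the file headers. Neither table held the authors' own comparisons. The 5 summary entries of the RNA-seq table (ambiguous reads were 3.84 to 4.50%) stayed out of library sizes and tests, and all libraries differed from each other.

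Counts were analysed with edgeR 4.0.16 in R 4.3.3 (TMM, filterByExpr, robust quasi-likelihood test, Benjamini-Hochberg adjustment over all features tested), in 1 model of 9 libraries without a replicate term, and tables and figures were made in Python 3.11.15. The limits for a call were an adjusted p of 0.1 and a log2 fold change of 0.8 in size for a gene and 0.5 for a peak. The comparisons were each mutant against TKO and the mutants against each other. Folds against libraries all at 0 were computed against 3 counts in each TKO library, and ratios to a group with few counts carry 95% exact binomial intervals. With 3 libraries against 3, the smallest p of an exact permutation test is 0.1. Gene models were GENCODE's for GRCm38, peaks were at a start site within 1000 bp, and sequences came from GRCm38.p6 and the RefSeq promoter table.

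The members, gene lists and markers were chosen with earlier results of these data known. Values in every library are given for the 20 Hox genes with the highest genotype mean CPM per kilobase of exons, and for the peak with the largest rise and the largest fall in each cluster, called in both mutants with at least 2 CPM in the higher genotype. Genes named from the other lists had the highest genotype mean per kilobase among those called, and some items that these rules select, a HoxB sequence among them, are not reported here. Alternatives were DESeq2 1.42.0, other scalings, filters and thresholds, a fit of only the genotypes compared, a replicate block and leaving out each library. The main edgeR fit was tried on simulated counts of both assays, for the comparison of CARM1 knockout with TKO alone. The alternatives were not tried in this way.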

Additional observations from a re-analysis of the deposited data

How the results depend on the processing

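The named HoxA and HoxB members that were called kept their direction under every alternative that gave a value. Of 290 values of named genes and peaks recomputed without leaving out a library, 286 stayed on the same side of the threshold. Values that an alternative did not give, as for HoxA genes no longer tested, are not among the 290. Of the counts of calls recomputed in the same way, 139 stayed at or near the main count and 11 moved further. With at least 10 counts required in every library, 8 Hox genes were tested and 0 were called higher in either mutant, since the HoxA genes are at or near 0 in TKO and were no longer tested, and the HoxB peaks called higher were 0 in CARM1 knockout and 2 in the NFIB mutant. Scaling by library totals alone moved the median of all peaks from 0.22 to 0.79 in each mutant, and the Hox peaks called lower to 13 in CARM1 knockout (13 in HoxB) and 9 in the NFIB mutant (9 in HoxB). Scaling by start-site peaks of evenly expressed genes, which is the study's scaling in principle, moved it to 0.62 and 0.70, with 11 Hox peaks lower in the NFIB mutant, 10 of them in HoxB. Under these scalings and TMM the HoxB median lay between 1.33 and 1.34 below that of all peaks in CARM1 knockout and between 1.14 and 1.15 below it in the NFIB mutant, and no called HoxA or HoxB member changed sign. The share of all calls that were higher was 54.4% and 53.6% for peaks with TMM, 65.9% and 64.3% with library totals and 62.7% and 62.8% with start-site peaks. For genes it was 52.9% and 48.7% with TMM and 39.4% and 35.8% with library totals, where the median of all genes moved to -0.30 and -0.37. HoxD peak 1 was no longer called with library totals (log2 fold change -0.95, adjusted p = 0.131, and -1.0, adjusted p = 0.115, by edgeR). Hoxb9 in CARM1 knockout was called with DESeq2 (-2.63, adjusted p = 0.0437) and with library totals (-2.92, adjusted p = 0.0955).

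When 1 library was left out, Hox genes called lower in the NFIB mutant ranged from 4 to 7 and HoxB peaks called higher there from 2 to 5. The log2 fold change of Hoxb9 in the NFIB mutant, not called, ranged from -1.5 to 1.75, being 0.17 without NFIB mutant replicate 1 and 1.75 without TKO replicate 3, so it has no settled direction. Replicate numbers did not pair the libraries, since the deviations of libraries with the same number correlated between -0.26 and 0.12 in RNA-seq and -0.15 and 0.11 in ATAC-seq, over 0.1 in 1 of 9 pairs each. With a replicate block, 6 Hox genes were higher and 7 lower in each mutant, 18 peaks were higher and 27 lower in CARM1 knockout, 24 were higher and 20 lower in the NFIB mutant, and 2 HoxB peaks were higher in the NFIB mutant. Genes that filterByExpr left out were called in the NFIB mutant elsewhere, Hoxa10 (4.83, adjusted p = 0.0840) and Hoxb13 (3.72, adjusted p = 0.0757) by DESeq2, Hoxc6 (6.67, adjusted p = 0.0917) with no filter and Hoxa10 (5.37, adjusted p = 0.0687) by edgeR without NFIB mutant replicate 1. The cause of these differences was not tested. The spread between 3 libraries and the 24 untested genes limit what can be read from HoxC and HoxD.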
